A study of Mus musculus with 6 samples.

Results

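The transcripts described here encode the 2 MTOR kinase complexes and the proteins that pass nutrient, growth factor and stress signals to them. The set was defined by a list of 49 gene symbols, with no measured value in the rule. The list and its division into roles were, however, chosen with earlier results of these data known. Counts by role are therefore descriptions. Of the 49 genes, 48 were among the 22180 genes measured. Rps6kb1, which encodes the S6 kinase S6K1, was named by no probe set and is not analysed here. The RNA came from mouse cumulus-oocyte complexes (COCs), in which a fully grown oocyte is enclosed by somatic cumulus cells. All samples were from wildtype females primed with 5 IU of equine chorionic gonadotropin for 46 h, whose age is stated as 21 days in the growth protocol and 23 days elsewhere in the labels. The control group comprised 3 samples that received DMSO, the vehicle, and the treated group 3 samples that received Torin1 at 5 µM. Torin1 competes with ATP at the MTOR kinase and acts on both of its complexes. Each culture held 100 COCs in medium with albumin at 3 mg/ml and milrinone at 5 µM. Milrinone blocks the oocyte phosphodiesterase PDE3 and so holds the oocytes in meiotic arrest. The culture time is 14 h in one label and 16 h in another. Whether the 3 samples of a group had their own animals or their own day of culture is not stated. The replicate error, and every p-value, may therefore be that of technical repeats.

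MTOR is a kinase that promotes protein and lipid synthesis and restrains autophagy. With RPTOR it forms complex 1, which is activated at the lysosome by RHEB, after Rag GTPases held there by the Ragulator have recruited it in response to amino acids. With RICTOR and MAPKAP1 it forms complex 2, which phosphorylates AKT and SGK1. The TSC proteins switch RHEB off, GATOR1 switches off the Rag GTPases RRAGA and RRAGB, GATOR2 opposes GATOR1, and sestrins bind GATOR2 when leucine is scarce. In the ovary, MTOR signalling takes part in follicle activation and in the growth and function of granulosa and cumulus cells. The arrays measured transcripts, not the activity of either complex.

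With Torin1, 15 of the 48 transcripts changed. Of these, 6 encode Rag, Ragulator and FLCN proteins, 5 encode GATOR, KICSTOR and sestrin proteins, and the others were Telo2, Mapkap1, Ddit4 and Sgk1. By limma with Benjamini-Hochberg adjustment over all genes (called at an adjusted p below 0.05), 7 rose, 8 fell and 33 were not called. Over all 22180 genes tested, 12.1% were called, 5.13% as higher and 6.94% as lower. Since 44 of the 48 lay at or above the level of the median gene, the share among the 11090 genes at or above that level is the closer background: there 22.1% were called, 9.46% as higher and 12.6% as lower. The median log2 change was 0.03 over the 48 transcripts and 0.01 over all genes, and 22 of the 48 changes were below 0, against 47.2% of all genes. A change of at least 1 log2 unit was seen in 3 transcripts: Wdr59 (-1.90), Rragd (1.17) and Sgk1 (1.29). The values of the groups did not overlap for any of the 15 called transcripts, nor for 8 of the 33 not called, which makes 23 of 48, against 28.6% of all genes and 44.4% of the brighter genes. Leaving out DMSO sample 1, DMSO sample 2 or Torin1 sample 2 lowered the count of rises from 7 to 3, and leaving out DMSO sample 3 lowered it to 4. The count of falls went from 8 to 4 without any 1 DMSO sample and to 5 without Torin1 sample 1. Rragd, Lamtor2, Lamtor3, Depdc5, Wdr59 and Sesn1 kept their calls under every alternative that tested them. With all 41345 probe sets fitted and adjusted together, an alternative chosen after seeing the data, 3 rises and 5 falls were called: Telo2, Rragc, Flcn, Kptn, Sesn3, Ddit4 and Sgk1 were not (adjusted p between 0.0569 and 0.0926).

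**Figure D1:**
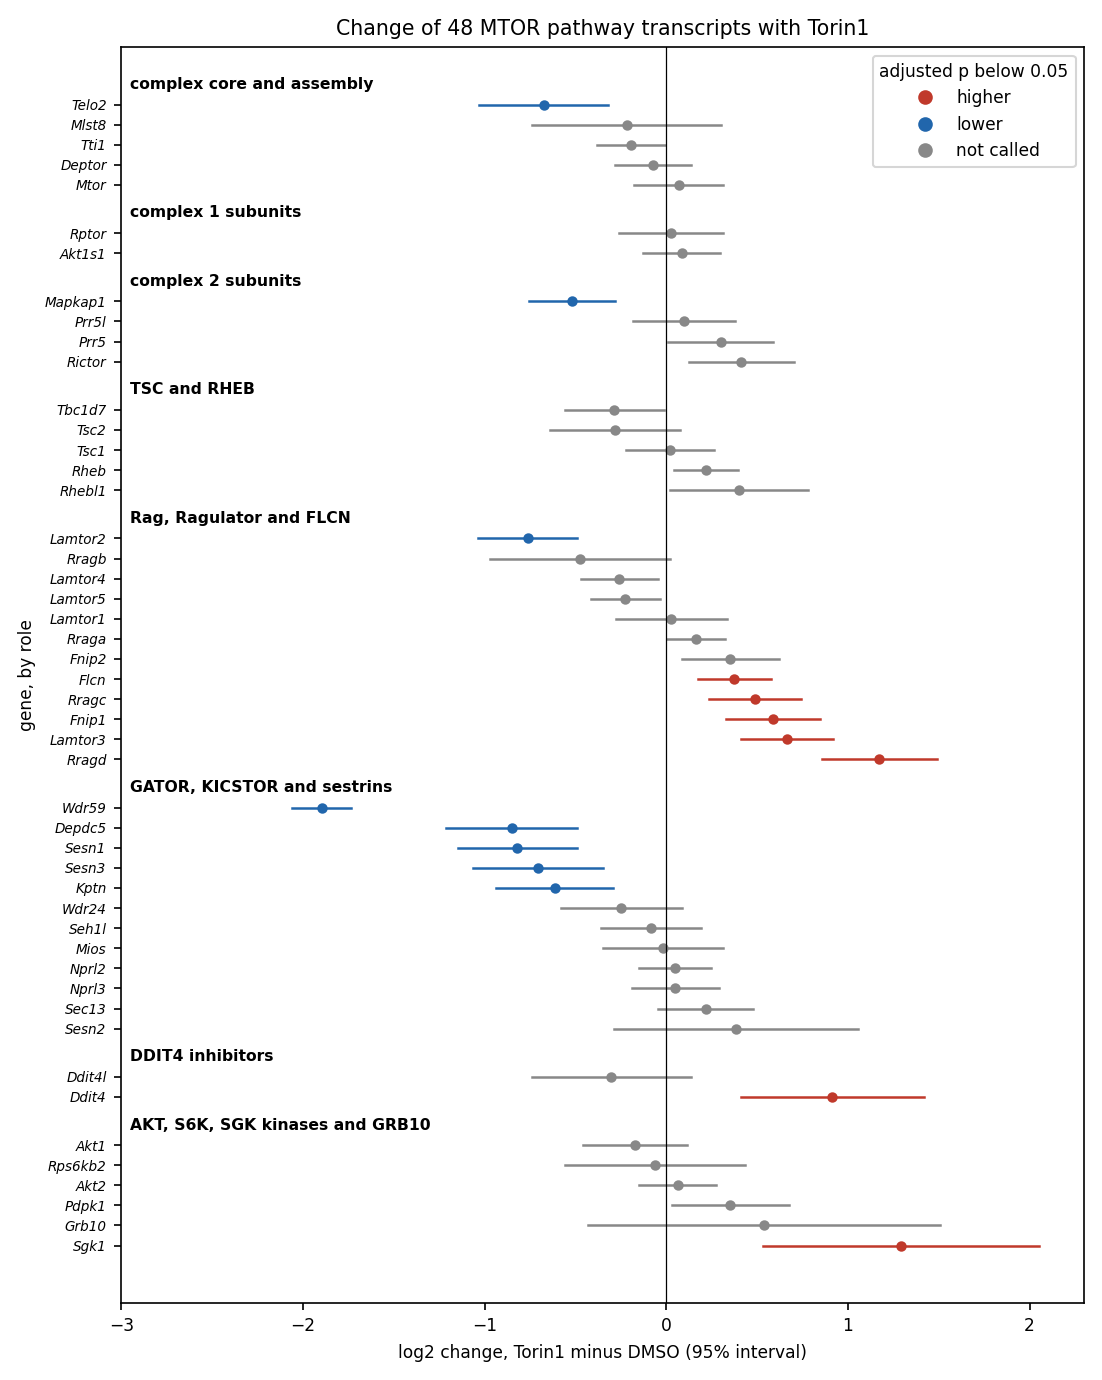
Log2 change (Torin1 minus DMSO, on the log2(intensity + 1) scale) of the 48 measured transcripts, grouped by role, with the 95% interval of the limma fit; red marks the 7 called higher, blue the 8 called lower and grey the 33 not called. Wdr59, at -1.90, lies furthest from 0, and the called rises are mostly in the Rag, Ragulator and FLCN group while the called falls are mostly in the GATOR, KICSTOR and sestrin group.

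Over all genes the treatments were parted by the leading principal component (67.2% of the variance), and the next one (16.5%) set Torin1 sample 3 apart from the others. Markers show what else moved with the treatment. Of 14 cumulus and granulosa markers 11 were called lower and 1 higher, and their summed intensity was 5902 to 5986 in DMSO and 3255 to 3736 in Torin1. The 15 oocyte markers were all above the median gene; 1 was called higher and 0 lower, and their sum was 5885 to 6261 in DMSO and 6511 to 7183 in Torin1. Sums of 7 theca and stroma markers were 246 to 308 and 126 to 148, of 6 immune markers 61.0 to 68.3 and 72.2 to 76.6, and of 5 endothelial markers 96.5 to 103 and 143 to 263. Of the theca and stroma markers Ptch1 (-1.53) and Pdgfra (-0.82) were called lower, while the median change of the 7 was -0.02. Of the immune markers Cd68 was called higher (0.54), and of the endothelial markers Cdh5 was (2.33). In these marker groups 3 of 7, 1 of 6 and 3 of 5 lay above the median gene, and the theca marker Cyp17a1 was at 2.82 in DMSO and 2.87 in Torin1 on the log2 scale, near the bottom of the range. None of the 4 erythroid markers was measured. The part of cell composition in the results below was not tested, and in RNA of whole complexes fewer cells of a type and less RNA per cell cannot be told apart.

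Of the kinase, its shared subunits and its assembly factors, Telo2 fell and the other 4 genes were not called. Mtor itself was at 6.92, 6.83 and 7.00 in the DMSO samples and 7.07, 7.08 and 6.80 in the Torin1 samples, on the log2(intensity + 1) scale used throughout. The groups overlapped, and the 95% interval of the change ran from -0.18 to 0.31 (adjusted p = 0.805, limma). Mlst8, which encodes a subunit that stabilises the kinase, was at 6.28, 6.17 and 6.36 in DMSO and 6.23, 6.41 and 5.52 in Torin1. Torin1 sample 3 was the low value, and the change was -0.22 ± 0.22 (SE) with it and 0.05 without it. The 95% interval with all samples ran from -0.74 to 0.30, so neither a fall nor a rise within those bounds is excluded. Deptor, an inhibitor of both complexes, changed by -0.07 ± 0.09 and was not called (adjusted p = 0.754, limma). The gene that fell was Telo2, whose product works with TTI1 to fold and assemble MTOR and related kinases. Its values were 5.89, 5.61 and 5.49 in DMSO and 4.90, 5.26 and 4.81 in Torin1, so every Torin1 sample lay below every DMSO sample. The fall was -0.68 ± 0.15, or 1.60-fold (adjusted p = 0.0300, limma). Telo2 was not called without DMSO sample 1, 2 or 3 or without Torin1 sample 1 or 3 (adjusted p up to 0.0956). Tti1, its partner, was at -0.20 ± 0.08 and was not called (adjusted p = 0.186), although its groups did not overlap.

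Neither measured subunit particular to complex 1 was called, and of the complex 2 genes Mapkap1 fell and the others were not called. Rptor, the scaffold of complex 1 that binds its substrates, was at 7.20, 7.13 and 7.32 in DMSO and 7.37, 7.36 and 7.00 in Torin1. The groups overlapped, with an interval of -0.26 to 0.31 for the change (adjusted p = 0.948, limma). Akt1s1, which encodes an inhibitory subunit of complex 1, was at 5.93, 5.79 and 6.05 in DMSO and 6.04, 5.94 and 6.04 in Torin1. These overlapped too, and the change of 0.09 ± 0.09 was not called (adjusted p = 0.692). Of the 4 complex 2 genes 0 were called higher and 1 lower. The product of Mapkap1, SIN1, recruits substrates to complex 2. Mapkap1 was at 7.29, 7.20 and 7.15 in DMSO and 6.77, 6.81 and 6.52 in Torin1, with no overlap. The fall was -0.52 ± 0.10, or 1.43-fold (adjusted p = 0.0170), and the call was lost without DMSO sample 1, 2 or 3 (adjusted p up to 0.0662). Rictor, the scaffold of complex 2, had values of 6.30, 6.32 and 6.62 in DMSO and 6.90, 6.93 and 6.64 in Torin1. These did not overlap, though DMSO sample 3 lay just under Torin1 sample 3. The change of 0.41 ± 0.12 missed the threshold (adjusted p = 0.0771). It was called if Torin1 sample 3 was left out (adjusted p = 0.0329). Prr5 and Prr5l, which encode accessory subunits, changed by 0.30 ± 0.12 and 0.10 ± 0.12; neither was called (adjusted p = 0.194 and 0.744), but Prr5 was without Torin1 sample 1 (adjusted p = 0.0480).

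None of the 5 TSC and RHEB genes was called by limma, although 3 of them had an unadjusted p below 0.05. Tsc1, which stabilises the TSC complex, was at 6.37, 6.15 and 6.37 in DMSO and 6.17, 6.36 and 6.42 in Torin1. Tsc2, which carries the activity that switches RHEB off, was at 7.44, 7.24 and 7.40 in DMSO and 7.19, 7.31 and 6.75 in Torin1. Both overlapped between groups, with intervals of -0.22 to 0.26 and -0.64 to 0.08. Tbc1d7, the remaining TSC subunit, changed by -0.29 ± 0.12 (adjusted p = 0.185). Rheb, the direct activator of complex 1, was at 7.27, 7.10 and 7.20 in DMSO and 7.41, 7.42 and 7.40 in Torin1. The Torin1 samples were all higher, with an SD of 0.01, but the change of 0.22 ± 0.08 was not called (adjusted p = 0.124). The related gene Rhebl1, below the level of the median gene, changed by 0.40 ± 0.16 (adjusted p = 0.187) and was called without Torin1 sample 3 (adjusted p = 0.0474).

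The Rag, Ragulator and FLCN genes held 5 of the 7 rises. These proteins sit on the lysosome, where a Rag dimer of RRAGA or RRAGB with RRAGC or RRAGD recruits complex 1. Of 12 measured genes 5 rose, 1 fell and 6 were not called, the median change was 0.26, and the groups did not overlap for 10 of 12. Among all genes at or above the median level, 22.1% were called and 44.4% did not overlap. Rragd had the largest of these rises. It was at 5.31, 5.61 and 5.64 in DMSO and 6.52, 6.64 and 6.91 in Torin1. The groups were well apart, and the rise was 1.17 ± 0.13, or 2.25-fold (adjusted p = 0.00223, limma). Rragc, which encodes its close relative, was at 6.08, 5.95 and 6.04 in DMSO and 6.34, 6.71 and 6.49 in Torin1. That rise was smaller, at 0.49 ± 0.11 or 1.40-fold (adjusted p = 0.0285). Rraga was at 7.54, 7.57 and 7.49 in DMSO and 7.71, 7.68 and 7.71 in Torin1, a separation of small size (0.16 ± 0.07, adjusted p = 0.194) that was not called. Rragb was dim, with a mean of 2.82 over all arrays and a change of -0.47 ± 0.21 (adjusted p = 0.231).

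Flcn and Fnip1 rose. FLCN with its partner acts on RRAGC and RRAGD as a GTPase activator. Flcn was at 5.24, 5.34 and 5.47 in DMSO and 5.69, 5.79 and 5.70 in Torin1. The groups were apart, and the rise was 0.37 ± 0.09, or 1.30-fold (adjusted p = 0.0319, limma). Fnip1, which encodes a binding partner of FLCN, was at 5.27, 5.02 and 5.38 in DMSO and 5.78, 5.92 and 5.74 in Torin1. It rose by 0.59 ± 0.11, or 1.50-fold (adjusted p = 0.0152). Fnip2, the other partner, lay below the median gene and changed by 0.35 ± 0.11 with no overlap, but was not called (adjusted p = 0.0971).

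Of the 5 Ragulator subunits, which form 1 complex, Lamtor3 rose, Lamtor2 fell and the others were not called. Lamtor3 was at 7.24, 7.07 and 7.41 in DMSO and 7.89, 8.00 and 7.81 in Torin1, a rise of 0.66 ± 0.11 or 1.58-fold (adjusted p = 0.00856, limma). A second, dimmer probe set for Lamtor3 gave a change of 0.70 ± 0.09. The RefSeq gene table also lists a copy named Lamtor3-ps, so the signal may be shared and its source is uncertain. Lamtor2, whose protein pairs with LAMTOR3 in the complex, was at 7.68, 7.82 and 7.79 in DMSO and 7.06, 7.17 and 6.77 in Torin1. It fell by 0.76 on the log2 scale (SE 0.12), or 1.70-fold (adjusted p = 0.00694). Lamtor4 and Lamtor5, which encode the other small pair of subunits, were at -0.26 ± 0.09 and -0.22 ± 0.08, each without overlap and not called (adjusted p = 0.125 and 0.137). Lamtor1, the subunit that anchors the complex to the lysosomal membrane, was at 0.03 ± 0.13 (adjusted p = 0.952). Among the 12 genes of this group the calls that single samples decided were Rragc (not called without DMSO sample 1, 2 or 3 or Torin1 sample 2, adjusted p up to 0.0966), Flcn (without DMSO sample 1 or 2 or Torin1 sample 1 or 2, up to 0.106) and Fnip1 (without Torin1 sample 2, 0.0513). The group's rises numbered 3 without DMSO sample 1 or 2 and 2 without Torin1 sample 2, and Lamtor2 kept its call in each leave-out.

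**Figure D2:**
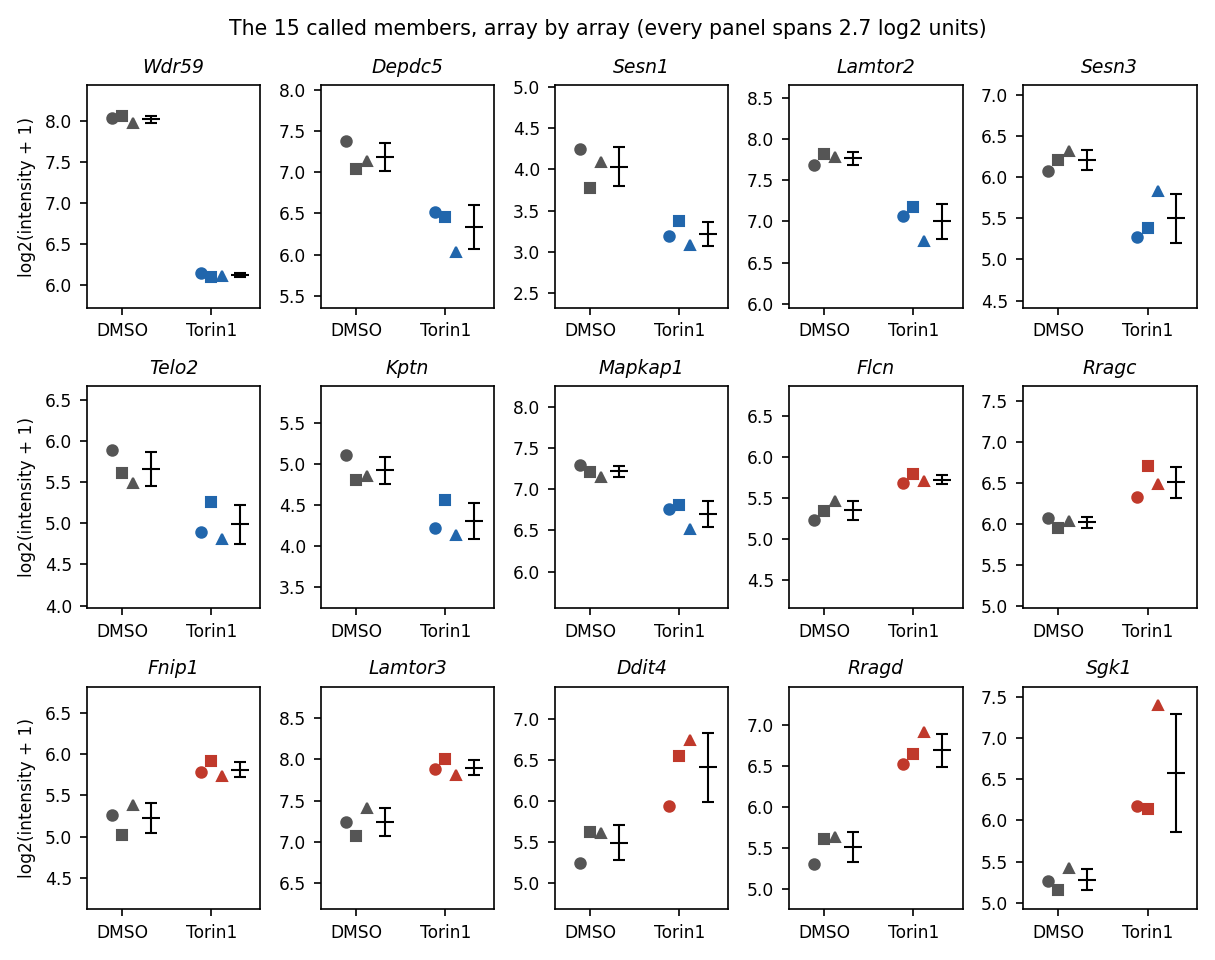
Log2(intensity + 1) of the 15 called transcripts in each array, with circles, squares and triangles for samples 1, 2 and 3 of a group and a bar for the mean and SD (n = 3); each panel spans the same range, so distances can be compared between panels. Wdr59 is separated by far more than its spread, while for Sgk1 Torin1 sample 3, at 7.40, lies well above the other Torin1 samples at 6.18 and 6.14.

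Upstream sequences are shown for the Rag and FLCN genes that rose and have an entry, because Rragd, Rragc and Flcn are known in other cells as targets of TFEB and TFE3, factors that complex 1 restrains and that bind the letters CACGTG. Other factors of the same DNA-binding class (bHLH) also bind these letters. Wdr59 is added because it fell the most. Each run is the 250 bases before the RefSeq start site of build GRCm38.p6, 5′ to 3′ on the gene's strand, with CACGTG and TGACGTCA, the binding letters of cAMP-response factors, in capitals. The windows are chr4:32982748-32982997 (plus strand) for Rragd, chr4:123917183-123917432 (plus) for Rragc, chr11:54437929-54438178 (plus) for Fnip1, chr11:59810040-59810289 (minus) for Flcn and chr8:111522108-111522357 (minus) for Wdr59.
Rragd: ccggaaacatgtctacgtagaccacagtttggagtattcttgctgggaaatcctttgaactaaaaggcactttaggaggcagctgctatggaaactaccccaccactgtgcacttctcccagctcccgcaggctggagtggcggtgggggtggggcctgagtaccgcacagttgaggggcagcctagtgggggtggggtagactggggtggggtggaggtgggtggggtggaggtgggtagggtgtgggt
Rragc: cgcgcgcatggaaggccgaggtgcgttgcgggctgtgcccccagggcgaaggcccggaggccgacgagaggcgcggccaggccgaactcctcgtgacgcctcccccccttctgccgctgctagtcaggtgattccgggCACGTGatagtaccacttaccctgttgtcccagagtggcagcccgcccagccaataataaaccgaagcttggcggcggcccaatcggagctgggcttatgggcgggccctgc
Fnip1: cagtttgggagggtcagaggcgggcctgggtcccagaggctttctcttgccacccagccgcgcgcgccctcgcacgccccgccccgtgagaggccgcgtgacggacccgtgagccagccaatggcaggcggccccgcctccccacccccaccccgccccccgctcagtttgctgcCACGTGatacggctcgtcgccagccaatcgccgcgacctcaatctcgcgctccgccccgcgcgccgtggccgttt
Flcn: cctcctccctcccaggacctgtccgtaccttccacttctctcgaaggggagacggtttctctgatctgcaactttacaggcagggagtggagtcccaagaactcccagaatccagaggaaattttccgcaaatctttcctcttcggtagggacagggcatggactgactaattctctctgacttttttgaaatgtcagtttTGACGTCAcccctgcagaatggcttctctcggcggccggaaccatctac
Wdr59: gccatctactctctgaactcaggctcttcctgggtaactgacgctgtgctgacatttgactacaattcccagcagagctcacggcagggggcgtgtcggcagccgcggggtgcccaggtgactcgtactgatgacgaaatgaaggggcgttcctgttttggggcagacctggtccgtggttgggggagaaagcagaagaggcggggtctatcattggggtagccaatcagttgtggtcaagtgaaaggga

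CACGTG begins 112 bases before the start of Rragc and 75 bases before that of Fnip1, and TGACGTCA begins 49 bases before that of Flcn. The windows of Rragd and Wdr59 hold neither, which says only that these letters are not in these 250 bases. Of the 49 genes 43 had at least 1 window, and 8 of the 43 held CACGTG, against 6.86% of 27025 genes with a window. These 8 were Rragc, Fnip1 and Sgk1, which rose, and Tbc1d7, Rheb, Rragb, Lamtor1 and Lamtor4, which were not called. The motif shares over all genes were not limited to genes measured here or matched for level. Whether the set differs from them, and whether the letters go with the rises, was not tested. TGACGTCA was found in 1 of the 43 (Flcn; 1.77% of all genes), the forkhead letters GTAAACA in 2 (Mapkap1 and Akt1; 3.54%) and TGATGCAA, bound by ATF4 with a partner, in 0 (0.918%). Both strands were searched, none of these motifs contains another, and a match is a description of the letters, not evidence of binding.

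The GATOR, KICSTOR and sestrin genes, which report amino acid supply to the Rag GTPases, held 5 of the 8 falls and no rise. Of 12 measured genes 0 rose, 5 fell and 7 were not called (limma), with a median change of -0.17, and 12.6% of the genes at or above the median level were called lower. The groups did not overlap for 5 of the 12 (41.7%), close to the 44.4% among genes at or above the median level. Wdr59, which encodes a subunit of GATOR2, had the largest change of all 48 transcripts. Its values were 8.03, 8.05 and 7.97 in DMSO and 6.15, 6.10 and 6.12 in Torin1. The SD was 0.04 in DMSO and 0.02 in Torin1, and the fall was -1.90 ± 0.07, or 3.72-fold (adjusted p = 3.9e-05, limma). In intensity units Wdr59 went from between 250 and 265 to between 67.7 and 70.0. Over the alternatives its change ran from -1.93 to -1.70. The other GATOR2 subunits did not share a fall of that size. Wdr24 was at -0.25 ± 0.14, Mios at -0.02 ± 0.14, Seh1l at -0.08 ± 0.12 and Sec13, which like SEH1L also serves the nuclear pore, at 0.22 ± 0.11, and none was called (adjusted p = 0.367, 0.973, 0.783 and 0.310).

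In GATOR1, the complex that switches off RRAGA and RRAGB, 1 of 3 subunits was lower. Depdc5 was at 7.38, 7.04 and 7.13 in DMSO and 6.52, 6.45 and 6.03 in Torin1. All Torin1 samples were below all DMSO samples, and Depdc5 fell by 0.85 on the log2 scale (SE 0.15), or 1.80-fold (adjusted p = 0.0133, limma). Nprl2 and Nprl3, its partners, were at 0.05 ± 0.08 and 0.05 ± 0.10 (adjusted p = 0.839 and 0.864), with intervals of -0.15 to 0.25 and -0.19 to 0.29. Kptn, a subunit of KICSTOR, which holds GATOR1 at the lysosome, was at 5.11, 4.81 and 4.85 in DMSO and 4.22, 4.56 and 4.14 in Torin1. Its fall was -0.61 ± 0.14, or 1.53-fold (adjusted p = 0.0288).

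Of the sestrins, Sesn1 and Sesn3 fell and Sesn2 was not called. Sesn1 is a known p53 target, and both genes that fell are known FOXO targets. Sesn1 was at 4.24, 3.77 and 4.09 in DMSO and 3.19, 3.38 and 3.09 in Torin1, a fall of -0.82 ± 0.14 (adjusted p = 0.0104, limma). Its means of 4.04 in DMSO and 3.22 in Torin1 lay below the median gene, at 4.17, so the size of the fall is uncertain. With a pseudocount of 16 the change was -0.37. Sesn3 was at 6.08, 6.21 and 6.32 in DMSO and 5.28, 5.38 and 5.83 in Torin1, a fall of -0.71 ± 0.15 (adjusted p = 0.0261). Sesn2, a leucine sensor and known ATF4 target, was at 6.67, 6.49 and 6.42 in DMSO and 6.52, 6.58 and 7.63 in Torin1. Only Torin1 sample 3 stood above the DMSO range, so the change of 0.38 ± 0.28 (adjusted p = 0.522) was 0.02 without that sample. In this group Kptn was not called without DMSO sample 1, 2 or 3 or Torin1 sample 1 or 3 (adjusted p up to 0.0931), and Sesn3 was called only without Torin1 sample 3 among the leave-outs (up to 0.0998 otherwise). The group's falls numbered 3 without any 1 DMSO sample or Torin1 sample 1.

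The stress-induced inhibitor Ddit4 was higher in Torin1. DDIT4, also called REDD1, restrains complex 1 through the TSC proteins. Its transcript was at 5.25, 5.62 and 5.61 in DMSO and 5.94, 6.54 and 6.74 in Torin1, with no overlap. The rise was 0.91 ± 0.21, or 1.88-fold (adjusted p = 0.0344, limma), and among the leave-outs it was called only without Torin1 sample 1 (adjusted p up to 0.115 otherwise). Ddit4l, a related gene, was at 4.37, 4.22 and 4.47 in DMSO and 3.86, 3.81 and 4.49 in Torin1. Torin1 sample 3 lay with the DMSO samples, and the change of -0.30 ± 0.19 was not called (adjusted p = 0.412), but it was -0.52 and called without that sample (adjusted p = 0.0161).

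Of the 6 measured kinase and adaptor genes downstream of or beside the complexes, 1 rose and 5 were not called. Sgk1, which encodes a kinase activated by complex 2 and is known to be induced by follicle-stimulating hormone in granulosa cells, was at 5.27, 5.16 and 5.42 in DMSO. In Torin1 it was at 6.18, 6.14 and 7.40, so all treated samples were higher and sample 3 was highest. The rise was 1.29 ± 0.32, or 2.45-fold (adjusted p = 0.0441, limma). It was 0.88 without Torin1 sample 3, still called (adjusted p = 0.00205), and it was not called without DMSO sample 1, 2 or 3 or Torin1 sample 1 (up to 0.133). Akt1 was at 6.67, 6.44 and 6.68 in DMSO and 6.32, 6.31 and 6.65 in Torin1, and Akt2, the isoform best known for insulin responses, changed by 0.06 ± 0.09. Neither AKT gene was called (adjusted p = 0.496 and 0.791). Pdpk1, the kinase that phosphorylates AKT, S6K and SGK in their activation loop, was at 0.35 ± 0.14 with no overlap and was not called (adjusted p = 0.168). Rps6kb2, the measured S6 kinase gene, was at -0.06 ± 0.21 (adjusted p = 0.928). Grb10, an adaptor that complex 1 stabilises and that dampens insulin receptor signalling, was at 5.73, 5.61 and 5.84 in DMSO and 5.88, 5.60 and 7.32 in Torin1. Its change of 0.54 ± 0.41 (adjusted p = 0.537) rested on sample 3 and was 0.01 without it.

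**Figure D3:**
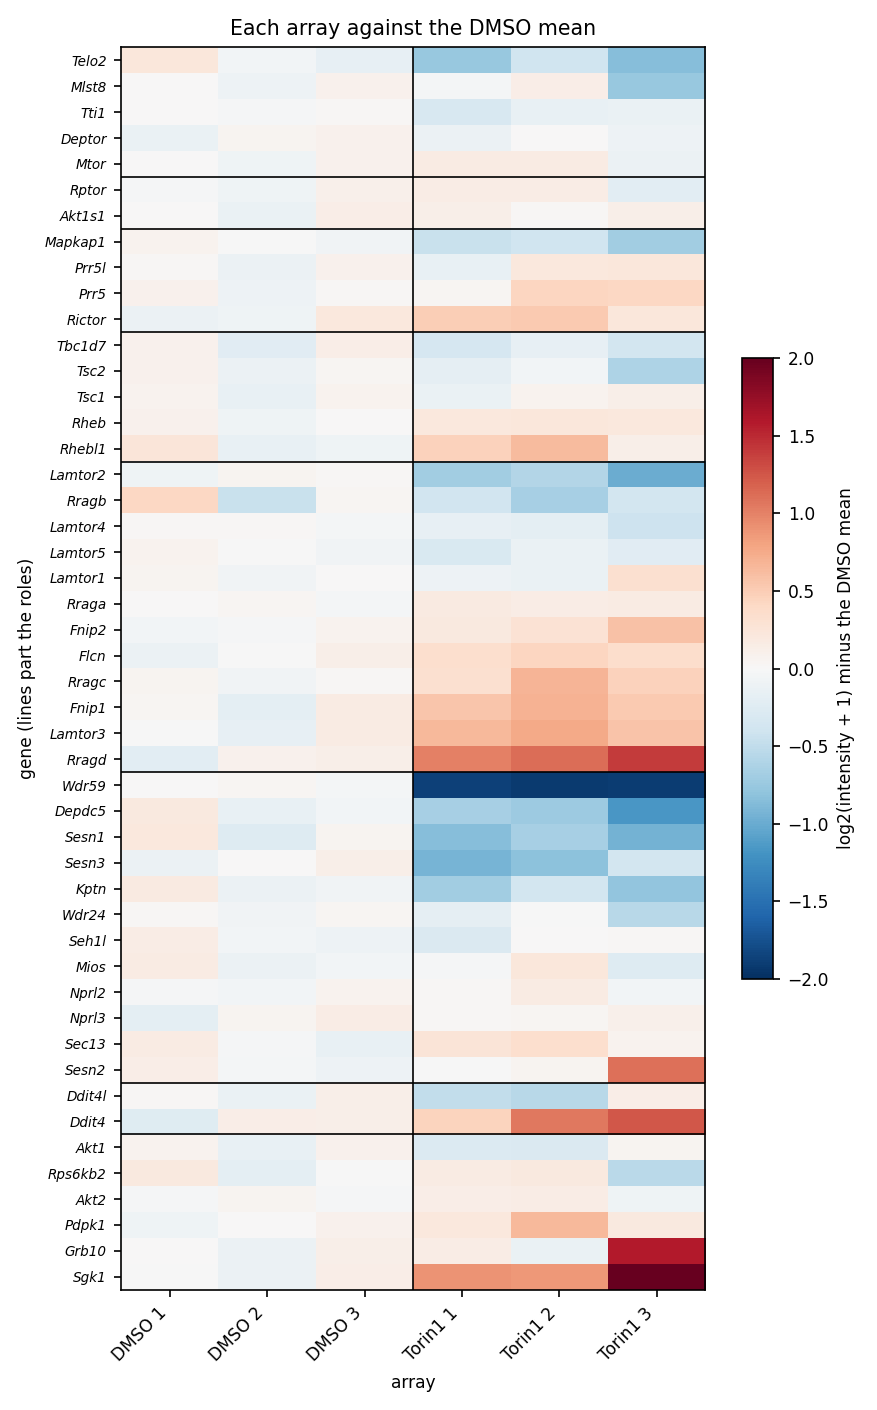
Log2(intensity + 1) of each of the 48 transcripts in each array, minus its DMSO mean; rows are genes, black lines part the roles, red is above and blue below the DMSO mean. Torin1 samples 1 and 2 look alike in most transcripts, though not in Ddit4, while Torin1 sample 3 differs from them most in Grb10, Sgk1, Sesn2, Mlst8 and Rps6kb2.

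Torin1 sample 3 departed from the mean of samples 1 and 2 by at least 0.5 in 7 of the 48 transcripts (14.6%). Over all genes this share was 8.68%, and over the genes at or above the median level 15.1%. Sample 3 was higher by 1.58 for Grb10, 1.24 for Sgk1, 1.08 for Sesn2 and 0.66 for Ddit4l, and lower for Mlst8 (-0.80), Rps6kb2 (-0.72) and Tsc2 (-0.50). Samples 1 and 2 differed from each other by at most 0.28 in these 7 transcripts, with Grb10 the furthest apart. Among the other transcripts they differed more for some: sample 1 minus sample 2 was -0.60 for Ddit4 and -0.45 for Pdpk1. Over the 48, the SD of the difference between samples 1 and 2 was 0.17. It was 0.45 between samples 1 and 3 and 0.49 between samples 2 and 3.

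Of the 33 transcripts not called, 19 had a 95% interval that stayed within 0.5 log2 units of 0, so a larger change was outside the interval for them. Of the same 33, 11 had an unadjusted p below 0.05 (7 higher and 4 lower). Wide intervals were those of Grb10 (-0.43 to 1.50) and Sesn2 (-0.29 to 1.05).

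**Figure D4:**
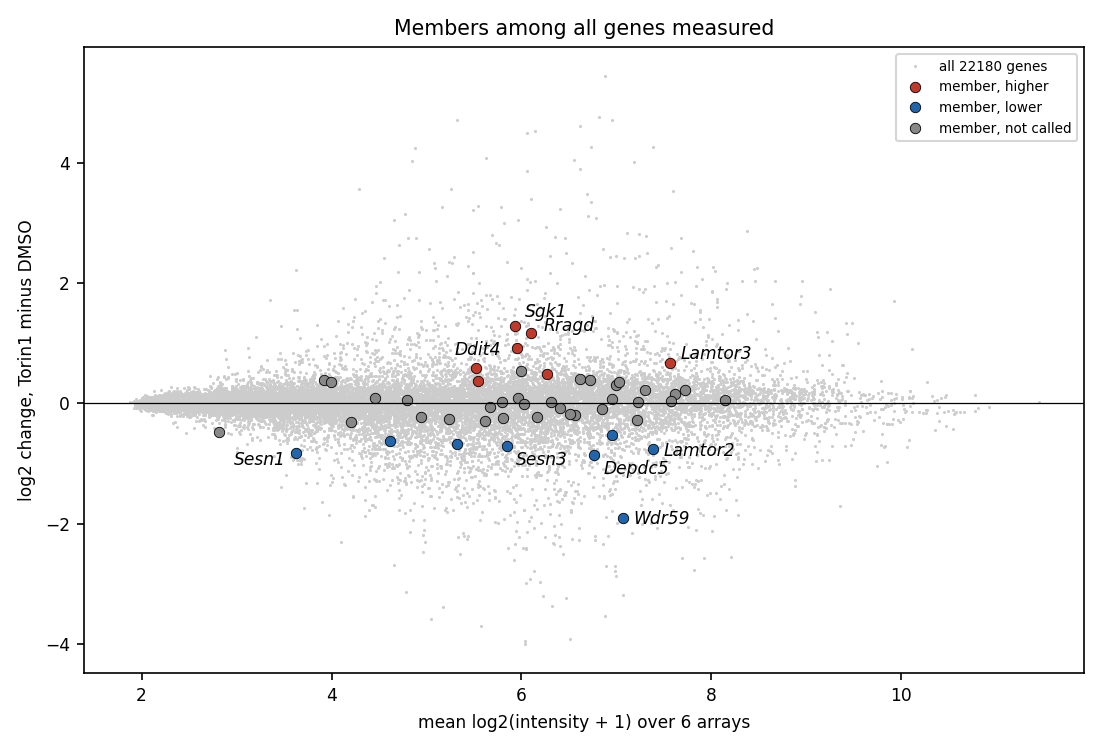
Log2 change (Torin1 minus DMSO) against the mean log2(intensity + 1) over the 6 arrays for all 22180 genes (grey dots), with the 48 transcripts as circles coloured by call. Nearly all lie above the median level of 4.17, and Wdr59, at -1.90, stands below the others.

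Related genes were set against each other within each array, to describe how their changes differed. For 14 pairs the difference between the 2 genes was compared between groups by an exact permutation test (two-sided, 3 against 3), whose smallest possible p is 0.1, so no pair could pass the threshold. The groups did not overlap for 9 of the 14 pairs. With 3 against 3 this alone gives an exact permutation p = 0.1 (adjusted p = 0.156 over the pairs). The share of other gene pairs without overlap was not computed, so the count is a description only. The largest difference was between the GATOR2 subunits, where the change of Wdr24 exceeded that of Wdr59 by 1.65 ± 0.17 (SE, n = 3 each; exact permutation p = 0.1). Ddit4 exceeded Ddit4l by 1.22 ± 0.25, Sesn2 exceeded Sesn3 by 1.09 ± 0.24, and the Rragc change was below that of Rragd (-0.69 ± 0.20). The Rptor change was below that of Rictor (-0.39 ± 0.07), with little spread between arrays. The pairs Prr5 and Prr5l (0.20 ± 0.04) and Sesn1 and Sesn2 (-1.20 ± 0.44) were also apart. So were Tsc1 and Tsc2 (0.30 ± 0.22) and Rraga and Rragb (0.64 ± 0.27). For Tsc2 the low value was that of Torin1 sample 3 (6.75, against 7.19 and 7.31), and Rragb was dim (a mean of 2.82 over all arrays). The overlapping pairs were Sesn1 and Sesn3 (-0.11 ± 0.29), Rheb and Rhebl1 (-0.18 ± 0.17), Fnip1 and Fnip2 (0.24 ± 0.18), Akt1 and Akt2 (-0.23 ± 0.22), and Nprl2 and Nprl3, whose changes were nearly equal.

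**Figure D5:**
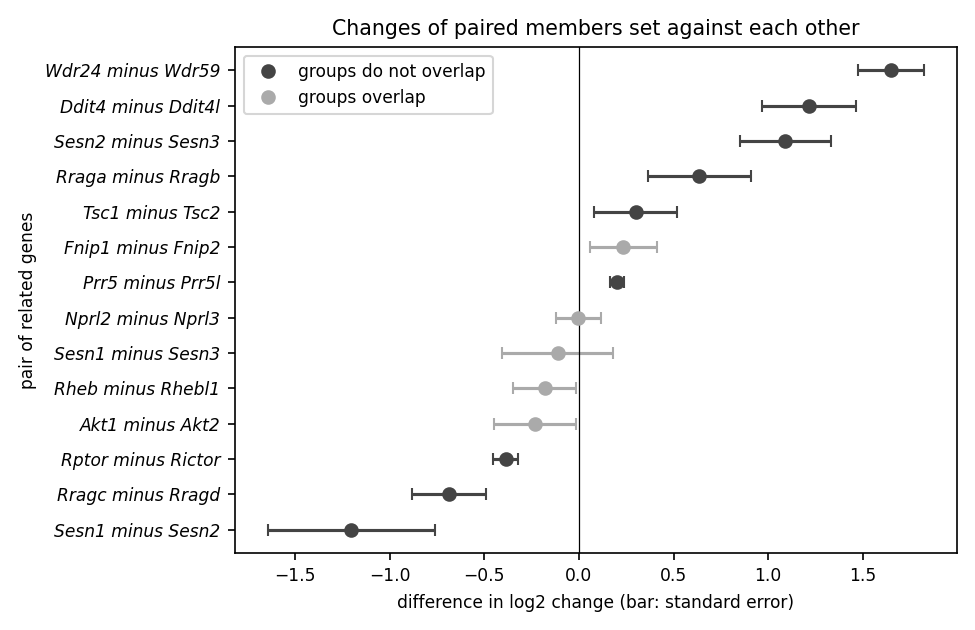
Difference between the log2 changes of 14 pairs of related genes (first minus second), computed within each array; points are means and bars standard errors (n = 3 each). Dark points mark the 9 pairs whose within-array differences did not overlap between groups, led by Wdr24 minus Wdr59 at 1.65.

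Other genes of the pathway were fitted in the same way. Their counts stand beside 12.1% called over all genes and 22.1% among genes at or above the median level, and a share near or below these is not a result about a list. The shares called in the PI3K, AMPK, other input, proton pump and complex 1 lists all lay below 22.1%. Among 13 genes of PI3K and insulin receptor input 0 rose and 2 fell (limma, adjusted over all genes). These were Irs1, an insulin receptor substrate (-1.42 ± 0.15, adjusted p = 0.00175), and Pik3r2, a regulatory subunit of PI3K (-0.57 ± 0.09, adjusted p = 0.00864). Among 10 genes of the energy sensor AMPK and its activator LKB1, which inhibit complex 1, 0 rose and 2 fell. They encode a catalytic and a scaffold subunit of AMPK, Prkaa2 (-0.64 ± 0.15, adjusted p = 0.0373) and Prkab2 (-0.59 ± 0.15, adjusted p = 0.0445). Of 12 other amino acid and lysosomal inputs 1 rose and 1 fell: Slc3a2, the shared subunit of several amino acid carriers, by 1.18 ± 0.10 (adjusted p = 0.000704), and Castor2 by -0.51 ± 0.10 (adjusted p = 0.0213). Of 15 subunits of the lysosomal proton pump 1 rose, Atp6v0a2 (0.50 ± 0.08, adjusted p = 0.0104), and 0 fell.

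Downstream of complex 1, 2 of 14 substrate and output genes rose and 0 fell, beside 9.46% called higher among genes at or above the median level. Eif4b, a translation initiation factor, rose by 0.44 ± 0.07 (adjusted p = 0.00924, limma) and Tfe3, the lysosomal gene factor named above, by 0.49 ± 0.10 (adjusted p = 0.0200). Tfeb, below the median gene, changed by 0.01 ± 0.07 and was not called (adjusted p = 0.972, limma). Downstream of complex 2, 2 of 12 genes rose and 2 fell, beside 22.1% called in either direction. The rises were Prkca, a protein kinase C (0.93 ± 0.13, adjusted p = 0.00545), and Nedd4l, a ubiquitin ligase that SGK1 phosphorylates (0.63 ± 0.12, adjusted p = 0.0186). The falls were Foxo1, a transcription factor restrained by AKT (-1.01 ± 0.10, adjusted p = 0.00109), and Sgk3, a relative of Sgk1 (-0.80 ± 0.15, adjusted p = 0.0170). The median changes of these 6 lists lay between -0.04 and 0.13.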

How the data were processed

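RNA of 6 COC samples was amplified as cDNA and hybridised, 1 array each. The deposited intensities, 1 per probe set and array on a linear scale, are the authors' RMA output. The submitters' processing notes name GCOS and Affymetrix Expression Console 1.1, without settings. The medians of the deposited arrays ran from 11.1 to 12.0, and no further scaling was applied. Of 41345 probe sets, 23521 named 1 gene and 1814 named several; the brightest probe set naming a gene alone was kept, which gave 22180 genes. Torin1 was compared with DMSO on log2(intensity + 1), which understates changes of dim genes, by limma 3.58.1 in R 4.3.3 (lmFit, eBayes, two-sided, no covariate, no filter), after the fit was tested on simulated data. The number of arrays limits the precision.

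The gene list, roles, pairs and pathway lists were chosen with earlier results of these data known. Named genes were every called transcript, a fixed set (Mtor, Rptor, Rictor, Mlst8, Tsc1, Tsc2, Rheb, Rps6kb1, Akt1, Sesn2, Flcn), up to 4 called genes per pathway list, and Tfeb. Every other listed gene of the set is given in brief. Fold changes set no gene's level against another's. The 18 alternatives comprised 6 leave-outs and 12 other settings, 1 of them (all probe sets) added after seeing the data.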

Additional observations from a re-analysis of the deposited data

How the results depend on the processing

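No called transcript changed sign under the 18 alternatives, while 9 of the 33 not called had the other sign in at least 1, and so had 2 of the 14 pair differences. Of the 15 calls, 6 held in every alternative that tested the gene, and 6 other transcripts were called in at least 1. Rises of the set numbered 4 with each array centred on its median, where Rragc, Flcn and Sgk1 lost their calls, and also 4 with the replicate block. Fitting all probe sets together gave 3 rises and 5 falls in the set. Leaving out 1 sample gave 3 to 8 rises and 4 to 7 falls in the set, and 655 to 1389 rises and 844 to 1694 falls over all genes. With a replicate block for the sample numbers, the calls over all genes fell from 1138 higher and 1540 lower to 657 and 908. Deviations of same-numbered samples correlated at -0.21, -0.30 and -0.15, which gave no sign that the numbers pair the samples. They correlated at 0.31 for DMSO 2 with Torin1 1, 0.30 for DMSO 3 with Torin1 2 and 0.11 for DMSO 1 with Torin1 3. Deviations from a mean of 3 samples depend on each other, so whether samples were paired under other numbers cannot be told. Ddit4, Sgk1, Telo2 and Kptn were not called with a pseudocount of 16, and Rheb and Rraga were. Averaging Torin1 samples 2 and 3, which share a short name in the labels, removed the calls of Flcn and Ddit4.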

Other observations

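Some probe sets that name these genes were not used. A second Deptor probe set gave -0.23 ± 0.13 (SE) beside -0.07 ± 0.09 for the one used, and a dimmer Seh1l probe set gave -0.36 ± 0.16 beside -0.08 ± 0.12. Probe sets shared with another gene gave -0.05 ± 0.14 for Akt1s1 with Mir707, -0.08 ± 0.08 for Nprl3 with Mpg and -0.02 ± 0.06 for Seh1l with 4930549G23Rik. None of these 5 was called in a fit over all probe sets.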
